A study of Mus musculus with 15 samples.

Results

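The untreated skin of mice labelled Trpv3 knockout was compared with the untreated skin of mice labelled wild type. Of the 15 samples of the series, 6 belong to this comparison, 3 libraries of each genotype. Genes were described when FPKM (fragments scaled to gene length and library size) was at least 0.5 in at least 3 of these 6 libraries, which kept 16214 of 54532 genes. Both groups were skin with no treatment. The labels give the genotypes as Trpv3-knockout and wild type and name no strain, age, sex or skin site, and no vehicle. The series text speaks of conditional knockouts of TRPV3, but neither the deleting promoter nor the cell type it acts in is named. Whether each library is a different mouse is not stated either, so the p-values below describe library-to-library spread that could be purely technical. Skin of both genotypes given the vitamin D analogue MC903 for 7 days, 3 libraries each, entered the fit to share 1 estimate of the spread.

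TRPV3 is a calcium-permeable channel of keratinocytes that opens on warming. In keratinocytes it works together with the epidermal growth factor (EGF) receptor, and calcium entry is part of the program by which these cells leave the basal layer, make cornified envelopes and shape the hair. Mice without the channel are known for wavy hair and whiskers. Beneath the epidermis lie a dermis made by fibroblasts, a fat layer and a thin sheet of muscle, and RNA of whole skin mixes all of these. In such bulk RNA, fewer cells of a type and less RNA per cell cannot be told apart.

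The 6 libraries held 17797944 to 18485698 reads on genes and 23715 to 24620 genes above 0. A single read on a 1 kb transcript corresponded to 0.0496 to 0.0537 FPKM. The first principal component of log2(FPKM + 0.5) held 45.5% of the variance and separated the genotypes. The second held 28.2% and separated wild type libraries from each other. Wild type replicate 3 stood apart. Its 15 hair shaft keratins, which build the hair fibre, summed to an FPKM of 1.35, against 54.6 and 106 in the other wild type libraries and 88.2 to 136 in those labelled knockout. Its 13 fast muscle fibre genes summed to 4130, against 2110 and 2320 in the other wild type libraries and 1580 to 2110 in those labelled knockout. Skin markers were present in every library: 13 basal keratinocyte genes summed to 1880 to 2160 in wild type and 2180 to 2450 in labelled knockout skin, and 22 fibroblast genes to 965 to 1510 and 1140 to 1380. Cartilage genes were present as well, with Col2a1 between 8.29 and 28.6.

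**Figure D1:**
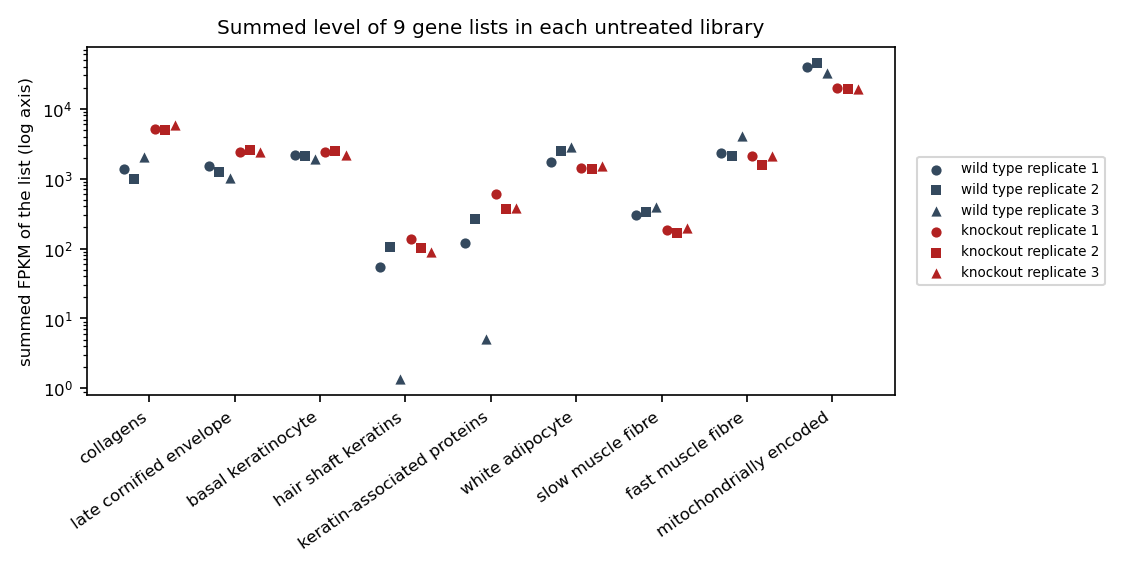
Summed FPKM (log axis) of 9 gene lists in each of the 6 untreated libraries, with dark points for wild type, red points for labelled knockout and 1 marker shape per replicate number. Wild type replicate 3 sits at 1.35 for hair shaft keratins and 5.15 for keratin-associated proteins, far below the other 5 libraries, and the collagen sums of the labelled knockout (4980 to 5760) lie above those of wild type (998 to 2050).

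The targeted gene did not bear out the labels in untreated skin. Trpv3 (chromosome 11, 73267388 to 73300363, mm10, plus strand) read 3.17, 3.64 and 2.62 FPKM in the libraries labelled knockout and 2.06, 2.71 and 1.13 in wild type. The groups overlapped, and the difference of 0.61 ± 0.22 (log2 fold change ± SE, on log2 of FPKM + 0.5) did not pass the test (limma adjusted p = 0.096). It was called higher in labelled knockout skin without wild type replicate 2 (0.83, limma adjusted p = 0.042) and with library weights (0.52, limma adjusted p = 0.0065). Those weights were 5.538, 0.4329 and 0.1997 for wild type replicates 1, 2 and 3, so replicate 1 dominated the weighted wild type mean. The Trpv3 value is a sum over the gene's exons, so it neither shows nor excludes loss of a part of it. Genotypes are therefore given as labelled. Il33, which encodes the alarmin IL-33, read 8.67, 7.99 and 8.82 in labelled knockout and 12.6, 19.7 and 10.5 in wild type skin. All labelled knockout values lay below all wild type values, and Il33 was lower by the test (-0.67 ± 0.19, limma adjusted p = 0.037). This call was lost in 9 of 20 alternative settings, among them the fit without wild type replicate 2 (-0.42, limma adjusted p = 0.072) and the fit of the untreated libraries alone (-0.67, limma adjusted p = 0.11), with adjusted p from 0.002 to 0.12 over all 20. The call was also lost without wild type replicate 1 or any 1 labelled knockout library. F2rl1, which encodes the protease receptor PAR2, had a log2 fold change of 0.39 ± 0.21 (limma adjusted p = 0.23). Tslp, another epithelial alarmin, was at 0.16 ± 0.33 (limma adjusted p = 0.79). Il1rl1, the IL-33 receptor, was at 0.03 ± 0.21 (limma adjusted p = 0.94).

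None of 15 measured TRP channel genes passed the test (limma; median log2 fold change 0.08, range -0.41 to 0.61); 3 had an unadjusted p below 0.05, and limma-voom on recovered reads called 1 lower. Trpv4, a warmth- and osmosensitive channel, read 28.2, 24.4 and 27.3 in labelled knockout and 30, 18.1 and 29.2 in wild type skin. Among 13 genes of the EGF receptor family, its ligands and its sheddase, 4 were higher and 1 lower, against 8.09% and 5.35% of all genes. The ligand Btc (betacellulin) read 2.81, 4.4 and 3.55 in labelled knockout and 1.83, 1.1 and 0.694 in wild type skin, a log2 fold change of 1.29 ± 0.24 (limma adjusted p = 0.008). The ligand Hbegf, the receptor subunit Erbb2 and the sheddase Adam17 were higher by 0.66 ± 0.2, 0.45 ± 0.11 and 0.37 ± 0.09. Nrg4, a ligand of ERBB4, was lower (-0.72 ± 0.19). With labelled knockout replicate 1, 2 or 3 left out, 1, 1 and 2 of the family were higher. The Nrg4 call was lost without labelled knockout replicate 1 or 3 or wild type replicate 1 or 2.

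Of the 16214 genes, 2180 (13.4%) passed at an adjusted p below 0.05. Of these 1312 (8.09%) were higher and 868 (5.35%) lower in labelled knockout skin, and 351 and 97 of them differed at least 2-fold. The 3 labelled knockout values lay all above the 3 wild type values for 17.6% of the genes and all below for 15.0%. The median over all genes was 0.01 on the log2 scale. Scaled by total reads instead of the deposited factors, 1112 were higher and 1140 lower, with the median of all genes at -0.04, so the share of higher calls moved from 60.2% to 49.4%. Fitted on the 6 untreated libraries alone, 567 were higher and 342 lower. Without wild type replicate 3 the counts were 2178 and 1496, and without labelled knockout replicate 2 they were 521 and 284. In none of the 20 alternatives was a called gene called in the other direction.

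**Figure D2:**
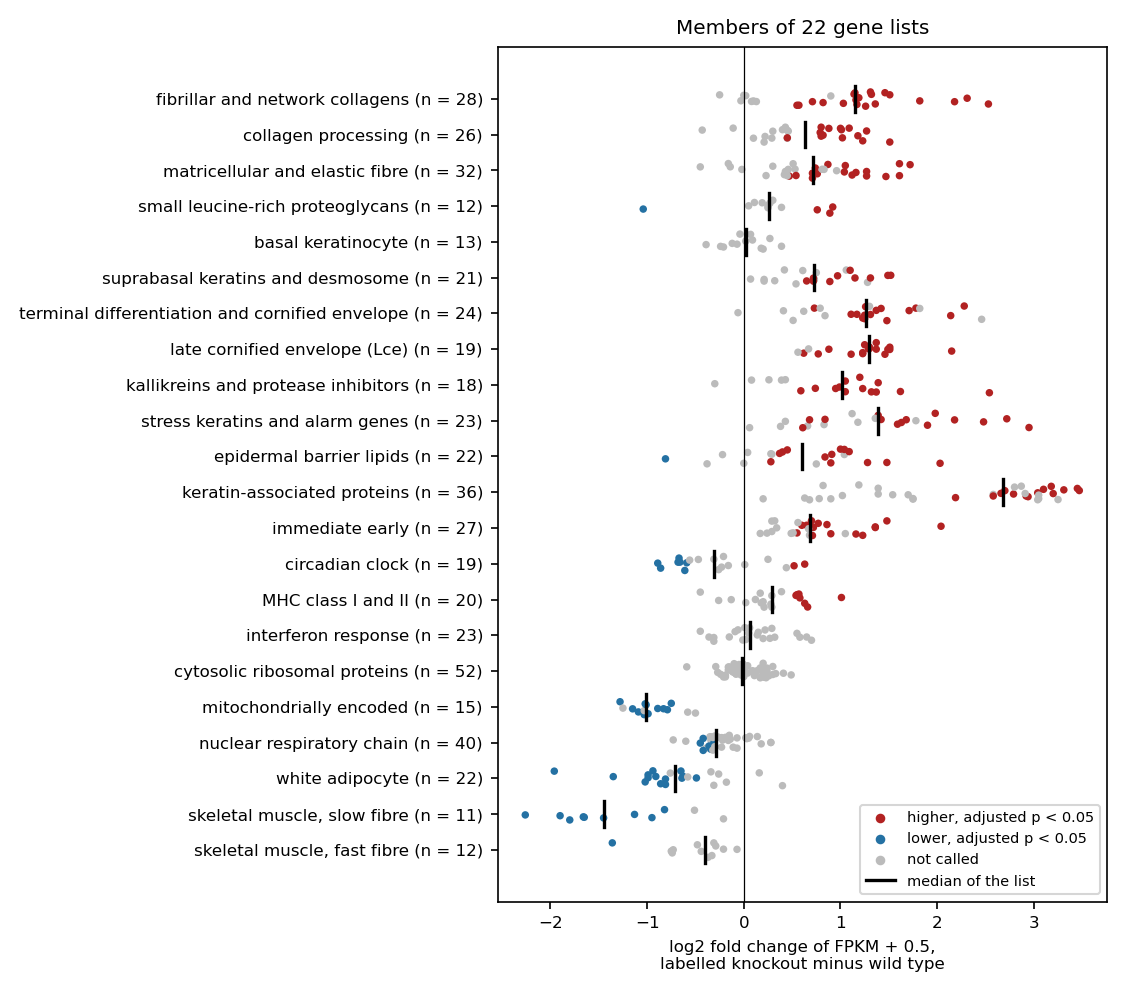
Each point is 1 gene, placed by its log2 fold change (log2 of FPKM + 0.5, labelled knockout minus wild type, untreated skin), for 22 lists with the number of measured members in brackets. Red and blue points passed limma's adjusted p of 0.05, grey points did not, and the black bar is the list's median: 1.15 for collagens, 1.29 for the late cornified envelope, -0.71 for white adipocytes and -1.45 for slow muscle fibre.

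Genes of the dermal matrix were higher in labelled knockout skin. Of 28 fibrillar and network collagens 20 were higher and none lower (median 1.15, all-gene median 0.01), and over the 20 alternatives the count stayed between 17 and 21. Col1a1, a chain of type I collagen (chromosome 11, 94936224 to 94953042), read 1520, 1530 and 1730 FPKM in labelled knockout and 277, 166 and 450 in wild type skin, a 5.34-fold ratio of means. Every labelled knockout value lay above every wild type value. Its log2 fold change was 2.53 ± 0.3 (limma adjusted p = 0.00095). Col3a1, the type III chain, was at 1310 ± 111 against 275 ± 96.3 (mean ± SD, n = 3 each). Col15a1, of basement membrane zones, read 22.6, 20.4 and 23.1 against 7.38, 8.23 and 9.35. The type V, VI and XII chains Col5a1 (1.82 ± 0.2), Col6a3 (1.31 ± 0.14) and Col12a1 (1.16 ± 0.17) were higher too. Col7a1, the anchoring fibril collagen made largely by keratinocytes, was higher by 1.17 ± 0.16. The 8 collagens not called ranged from -0.25 (Col4a3, of basement membranes) to 0.9 (Col8a2).

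Genes that process and crosslink collagen followed: 14 of 26 were higher and none lower (median 0.63; 9, 8 and 9 without labelled knockout replicate 1, 2 or 3), among them the lysyl oxidases Lox and Loxl2, the procollagen proteases Bmp1 and Adamts2, and Sparc (2490, 2410 and 2800 against 962, 573 and 1310). Of 32 matricellular and elastic fibre genes 17 were higher and none lower (median 0.72; 11 without labelled knockout replicate 1 and 10 without replicate 3). Tnc, the wound-associated glycoprotein tenascin C, had the lowest adjusted p of all genes. It read 23, 21.3 and 24.2 in labelled knockout and 7.09, 7.09 and 7.23 in wild type skin (1.61 ± 0.1, limma adjusted p = 4.9e-05). Fbn1 and Mfap2 of the microfibril, Eln (elastin), Fn1 (fibronectin) and Postn (periostin) were higher by 1.04, 1.61, 1.47, 1.12 and 0.87 on the log2 scale. Of 20 matrix metalloproteinases, related proteases and their inhibitors 7 were higher (Mmp2, Mmp14 and Adamts4 among them) and 1 lower. Of 12 small leucine-rich proteoglycans 3 were higher and 1 lower (median 0.26): Lum, Kera and Podn were higher, Dcn (0.11 ± 0.15) and Bgn (0.3 ± 0.14) were not called, and Omd (osteomodulin) was lower at 69.7, 64.4 and 85 against 142, 164 and 144. Without wild type replicate 3, 7 proteoglycans were higher. The lower one of the protease list was Timp4, an inhibitor of metalloproteinases (-1.1 ± 0.11, limma adjusted p = 0.00074). Of 19 TGF-beta pathway genes 3 were higher, Fstl1, Tgfb1 and Skil, but 7 without wild type replicate 3 and 1 without any of the other libraries except wild type replicate 2.

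Of 20 fibroblast identity genes measured, 6 were higher (median 0.28), among them Dpp4 (2.82, 2.65 and 3.22 against 1.38, 1.6 and 1.83) and Pdgfra (19.1, 18.8 and 21.3 against 12.5, 12.4 and 16.9). The summed level of the 22 listed fibroblast genes was 1140 to 1380 in labelled knockout and 965 to 1510 in wild type skin, and that of 21 cartilage genes 1140 to 1370 and 1000 to 1810. Both ranges overlap only through wild type replicate 3, at 1510 for fibroblast and 1810 for cartilage genes. Wild type replicates 1 and 2 were at 1100 and 965 for fibroblast genes and 1000 and 1010 for cartilage genes. These lie below every labelled knockout sum of the same list. The collagen sums do not overlap with all libraries included. The fibroblast count moved with single libraries: without wild type replicate 3, 11 were higher, without wild type replicate 1 or 2, or labelled knockout replicate 1 or 3, 2 were higher, and without labelled knockout replicate 2, 3 were. Of 20 cartilage genes 5 were higher, 11 without wild type replicate 3, 3 without wild type replicate 2 and 1 without any labelled knockout library.

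The outer layers of the epidermis were higher in labelled knockout skin, and the basal layer was not called. None of 13 basal keratinocyte genes passed the test (limma, median 0.02; 1 at an unadjusted p below 0.05 and 0 by limma-voom on recovered reads). Krt14 read 1140, 1150 and 1020 against 838, 953 and 746 (0.39 ± 0.19, limma adjusted p = 0.2). Of 21 suprabasal keratin and desmosome genes 10 were higher (median 0.73). Cdsn, which encodes corneodesmosin, the adhesive of the cornified layer, read 111, 119 and 96.1 against 53.2, 35.8 and 27.5. Of 24 genes of terminal differentiation 15 were higher (median 1.26), and of 19 late cornified envelope genes 17 (median 1.29), with none lower in any of these lists. Asprv1, a protease that processes filaggrin, read 407, 468 and 396 against 166, 138 and 93.6, a log2 fold change of 1.71 ± 0.2 (limma adjusted p = 0.0011). Lce1f read 132, 151 and 132 against 65.2, 47.1 and 36.6. Late cornified envelope genes are near-identical copies in a cluster on chromosome 3, and how reads were shared among them is uncertain. With the omission of labelled knockout replicate 1 or 2, 10 late envelope and 2 suprabasal genes were called, and without wild type replicate 2, 4 suprabasal genes. The medians over the 20 alternatives ran from 0.97 to 1.42 for the late envelope, 0.95 to 1.44 for terminal differentiation and 0.53 to 0.9 for the suprabasal list.

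The Sprr2 genes, small proline-rich envelope precursors induced in stressed epidermis, and the stefins, inhibitors of cysteine proteases, included genes with differences of more than 3 on the log2 scale. Sprr2d read 16.4, 11.5 and 9.93 in labelled knockout and 0.959, 1.46 and 0.23 in wild type skin (3.33 ± 0.34, limma adjusted p = 0.00069). Stfa3 read 56.8, 57.4 and 42.3 against 4.15, 6.74 and 2.79 (3.44 ± 0.25, limma adjusted p = 0.00018). Of 7 measured Sprr2 genes 5 were higher and of 8 stefins and cystatins 5, again in families of near-identical copies. Without labelled knockout replicate 1 or wild type replicate 1, 3 Sprr2 genes were called. Sprr1a read 155, 144 and 111 against 42.3, 44.7 and 14.6. Ivl (involucrin), the classical envelope protein, read 36.2, 53.9 and 38.4 against 24.3, 18.1 and 11.7. The promoters of these 4 genes are shown because the 7-base AP-1 motif TGANTCA, the site read by FOS and JUN proteins, occurs in each. Each window runs from 250 bases before to 50 bases after the RefSeq start (GRCm38.p6), 5′ to 3′ on the gene's strand, with the motif in capitals. Sprr2d is at chr3:92338890-92339189 (plus), Stfa3 at chr16:36455343-36455642 (minus), Sprr1a at chr3:92485832-92486131 (minus) and Ivl at chr3:92573686-92573985 (minus).
Sprr2d: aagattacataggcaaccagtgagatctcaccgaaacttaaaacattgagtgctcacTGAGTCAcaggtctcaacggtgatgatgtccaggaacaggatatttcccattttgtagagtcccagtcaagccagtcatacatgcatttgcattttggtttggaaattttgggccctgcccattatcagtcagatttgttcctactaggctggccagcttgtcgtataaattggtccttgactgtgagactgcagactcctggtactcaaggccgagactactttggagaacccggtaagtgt
Stfa3: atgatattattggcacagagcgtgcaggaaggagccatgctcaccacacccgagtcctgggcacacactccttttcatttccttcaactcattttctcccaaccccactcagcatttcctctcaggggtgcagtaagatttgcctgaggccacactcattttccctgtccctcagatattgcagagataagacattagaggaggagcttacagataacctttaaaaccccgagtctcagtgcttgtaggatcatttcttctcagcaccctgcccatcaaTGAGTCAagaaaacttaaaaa
Sprr1a: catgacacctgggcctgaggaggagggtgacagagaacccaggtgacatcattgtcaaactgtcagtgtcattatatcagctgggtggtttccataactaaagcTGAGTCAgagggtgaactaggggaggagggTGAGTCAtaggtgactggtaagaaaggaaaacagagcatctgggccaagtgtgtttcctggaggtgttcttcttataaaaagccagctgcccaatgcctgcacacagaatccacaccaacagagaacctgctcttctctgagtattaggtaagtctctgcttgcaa
Ivl: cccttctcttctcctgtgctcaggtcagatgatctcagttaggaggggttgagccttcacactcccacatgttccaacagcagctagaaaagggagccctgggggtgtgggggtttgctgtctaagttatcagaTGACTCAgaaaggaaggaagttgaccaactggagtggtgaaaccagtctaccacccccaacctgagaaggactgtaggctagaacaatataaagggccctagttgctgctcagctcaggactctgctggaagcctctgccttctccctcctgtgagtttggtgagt
The motif begins 193 bases before the start in Sprr2d, 116 before it in Ivl, 146 and 116 before it in Sprr1a, and 29 after it in Stfa3.

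Searched on both strands in 1 window per gene, TGANTCA was present in 11 of 21 terminal differentiation promoters (52.4%) and 5 of 6 Sprr2 promoters. Among all tested genes with a window it was present in 5.53% of 11346. The share was 9.75% of 964 windows of genes higher in labelled knockout skin and 4.19% of 621 windows of lower genes. None of 18 late cornified envelope windows held it. The cyclic AMP element TGACGTCA was in 1.97% of higher, 3.06% of lower and 2.99% of all windows, and the serum response element in 2.9%, 2.25% and 1.39%. The first 2 motifs cannot match from the same base. A match is a description of these windows and was not tested.

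Epidermal proteases and alarm genes were higher with the envelope. Of 18 kallikreins and protease inhibitors of the epidermis 13 were higher (median 1.02). Klk6, a trypsin-like kallikrein of the kind that can cleave PAR2, read 12.3, 12.9 and 9.9 in labelled knockout and 1.86, 2.69 and 0.691 in wild type skin (2.54 ± 0.28, limma adjusted p = 0.00082). Klk10, Klk8 and Klk13 were higher by 1.37, 1.32 and 1.62. Of 23 stress keratin and alarm genes 14 were higher (median 1.39). Il1f6, which encodes the cytokine IL-36 alpha, read 28.6, 31.5 and 25.4 against 5.35, 5.62 and 1.84. Ccl20, a chemoattractant for CCR6 cells, read 6.37, 7.89 and 4.16 against 0.141, 0.698 and 0.258, and its ratio of means was 16.8. Defb3, a beta-defensin, had 8, 11 and 5 reads in labelled knockout libraries and 0 in each wild type library, at least 2.75-fold higher when 3 reads per library are taken as the limit of detection. For Il1f6, Ccl20 and Defb3 every labelled knockout value lay above every wild type value. With the omission of labelled knockout replicate 1 or 2, 7 of the kallikrein list were called in each case, and 7 and 8 of the alarm list.

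Of 22 genes for barrier lipids 13 were higher and 1 lower. Degs2, which makes phytoceramides, read 2.5, 3.02 and 3.93 against 0.37, 0.384 and 0.385 (2.03 ± 0.16, limma adjusted p = 0.00021). The lipoxygenase Alox12b, whose product helps bind ceramides to the envelope, was higher by 1.48 ± 0.27. The fatty acid hydroxylase Fa2h was the lower one (204, 234 and 204 against 404, 446 and 295), a call lost without any 1 library but wild type replicate 3. The higher ones numbered 6 without labelled knockout replicate 1 or 2 and 8 without labelled knockout replicate 3 or wild type replicate 2. Of 13 tight junction genes 4 were higher and 1 lower (median 0.24; 2 higher without labelled knockout replicate 1 or 2 or wild type replicate 2 or 3, and 6 without wild type replicate 1). Cldn4 was among the higher (33.1, 34.8 and 26 against 14.7, 9.45 and 6.94) and Cldn8 was the lower one (0.673, 1.27 and 1.07 against 2.62, 4.42 and 1.42), the Cldn8 call being lost without any 1 library but wild type replicate 3. Of 17 sebaceous gland lipid genes 2 were higher and 2 lower, against 8.09% and 5.35% of all genes. Their median was -0.28, with 11 negative and 6 positive log2 fold changes. Without wild type replicate 3, 6 were lower. The wax and acylglycerol synthases Dgat2l6 (4.19, 5.17 and 3.77 against 1.17, 1.78 and 1.11) and Awat2 (1.18 ± 0.23) were higher. Mgst1 (91.9, 108 and 93.9 against 163, 205 and 173) and Pparg (-0.63 ± 0.12) were lower.

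Hair genes had high fold changes and a wide spread. Of 36 measured keratin-associated protein genes, which encode the matrix of the hair shaft, 14 were higher (median 2.68). In 24 every labelled knockout value lay above every wild type value, as in 17.6% of all genes. Krtap6-2 read 13.7, 9.67 and 14.8 in labelled knockout and 1.28, 1.77 and 0.2 in wild type skin (3.2 ± 0.4, limma adjusted p = 0.0015). Krtap21-1 read 17.7, 13.3 and 18.4 against 2.39, 2.44 and 0.241. Krtap4-6, Krtap4-1, Krtap4-2 and Krtap6-3 belong to the 10 highest genes by the naming rule, with fold changes of 3.31 to 3.47 on the log2 scale. Prr9, a proline-rich protein gene in the epidermal cluster of chromosome 3, was the highest at 3.59 ± 0.85 (70.5, 28.8 and 34.2 against 2.97, 15.9 and 0.221). Alox8, a lipoxygenase, read 16.3, 8.37 and 6.95 against 0.353, 1.6 and 0.147. Of 15 hair shaft keratins 2 were higher, Krt39 and Krt84, and of 13 inner root sheath genes 3, Krt26, Padi1 and Padi3 (5 without wild type replicate 2 and 1 without any other library). Wild type replicate 3 held nearly no hair shaft RNA. Without it 12 keratin-associated genes were called at a median of 1.67, and no hair shaft keratin; the latter also held without labelled knockout replicate 1 or 2, and 1 hair shaft keratin was called without labelled knockout replicate 3 or wild type replicate 1. Without labelled knockout replicate 1, 3 keratin-associated genes were called, without labelled knockout replicate 2 or 3, 4, and without wild type replicate 1, 6. The summed keratin-associated level of wild type replicate 2, 261, was still below the lowest labelled knockout sum of 373. Of 20 follicle stem and matrix genes, 2 were higher (median 0.00), Cd34 and Dlx3, a share near the 8.09% of all genes. Both calls were lost without wild type replicate 2 or any 1 labelled knockout library. That of Cd34 was also lost without wild type replicate 1, and that of Dlx3 without wild type replicate 3. The labels do not give the hair cycle stage, and its part in these values was not tested.

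Immediate early genes, which cells switch on within minutes of a stimulus, were higher in labelled knockout skin in 15 of 27 (median 0.68; 6 to 21 over the 20 alternatives), with none lower. Fosb read 8.96, 10.4 and 2.8 in labelled knockout and 1.42, 0.659 and 1.71 in wild type skin (2.04 ± 0.4, limma adjusted p = 0.0099). Junb read 46, 67.5 and 42.4 against 21.2, 13.7 and 25.4, and Fos 8.81, 23.8 and 11.6 against 4.72, 3.69 and 6.96. Fosl1, Fosl2 and Jun, which with them form the AP-1 dimers, were higher by 1.23, 0.55 and 0.65. Labelled knockout replicate 2 was the highest library for Fos, Fosb, Junb and Jun. Jund (0.49 ± 0.19) and Atf3 (1.05 ± 0.34) were not called. Of 15 heat shock genes none was higher and 2, Hspb8 and Cryab, were lower. Of 23 interferon response genes none was called (limma; median 0.06; 1 at an unadjusted p below 0.05 and 0 by limma-voom on recovered reads). The labels give no account of how long skin waited before RNA was taken, and its part in these values was not tested.

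Of 19 clock genes 7 were lower and 2 higher in labelled knockout skin. Arntl and Npas2, which encode activators of the clock, were higher (0.52 ± 0.11 and 0.63 ± 0.18). Per2, Per3, Nr1d1, Nr1d2, Bhlhe41 and Tef, whose promoters those activators drive, were among the lower genes. Per2 read 1.92, 1.89 and 2 in labelled knockout and 4.33, 3.6 and 3.87 in wild type skin (-0.86 ± 0.1, limma adjusted p = 0.001). Arntl read 8.06, 7.53 and 7.44 against 4.3, 5.55 and 5.9. Nr1d1, the repressor of Arntl, read 20.5, 19 and 17.1 against 32.1, 28 and 30.5. In all 3 genes the groups were apart. Among those not called were Cry1 (-0.16 ± 0.11) and Per1 (-0.26 ± 0.16). The time of day at which skin was taken is not given in the labels, and its part in these values was not tested. With the omission of labelled knockout replicate 1 or 2, or in the fit of the untreated libraries alone, neither activator was called. Without labelled knockout replicate 2 or 3 or wild type replicate 1, 4 genes were lower.

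**Figure D3:**
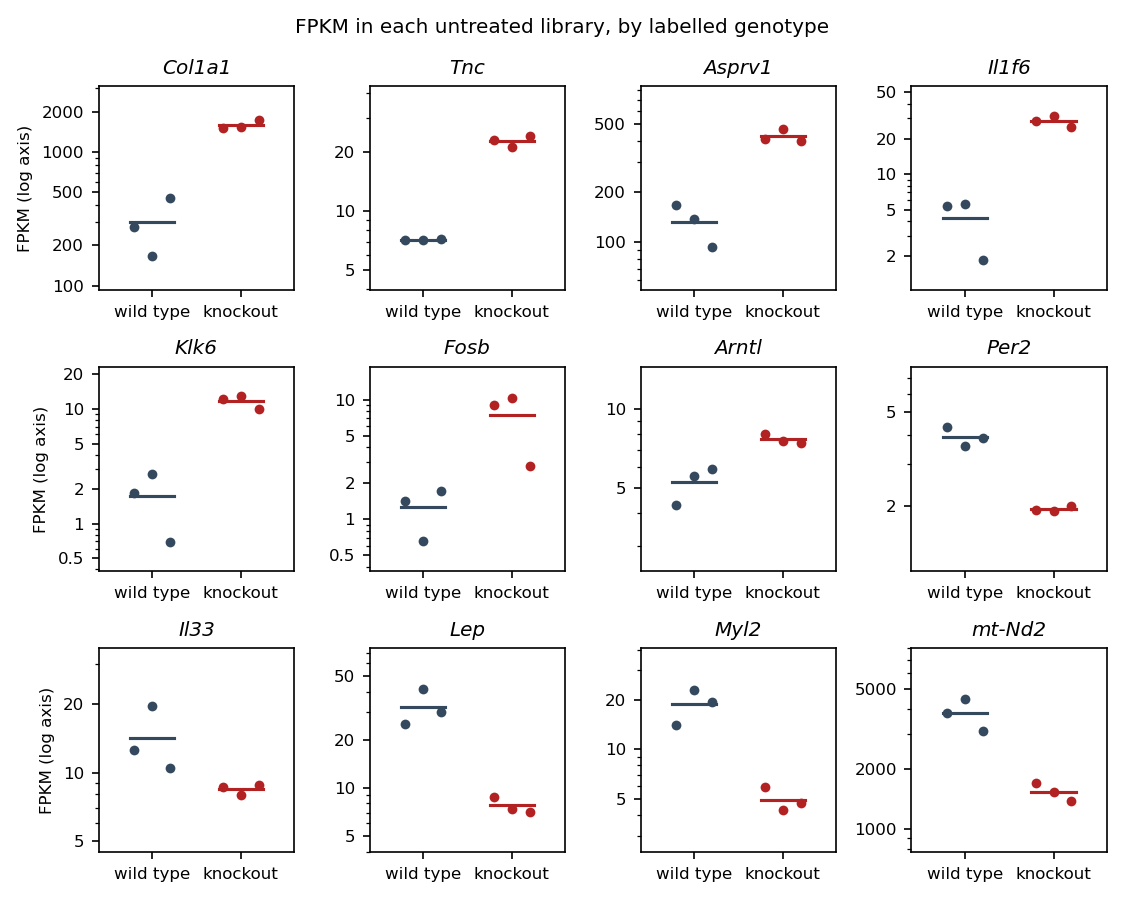
FPKM (log axis) of 12 genes in each untreated library, with the mean of each group as a bar, wild type dark and labelled knockout red, replicates 1 to 3 from left to right. The groups are apart in all 12 panels. In Tnc the wild type libraries sit at 7.09 to 7.23. In Fosb replicate 3 (2.8) is the labelled knockout library closest to wild type. The gap is narrow in Il33, from 8.82 in labelled knockout to 10.5 in wild type, and in Arntl, from 7.44 to 5.9.

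Immune genes were higher in part. Of 18 monocyte and macrophage genes 4 were higher (median 0.37), among them Adgre1 (F4/80; 15.5, 17.4 and 18.4 in labelled knockout against 7.73, 9.25 and 9.59) and the mannose receptor Mrc1 (32.4, 32.4 and 34.9 against 18.3, 24.3 and 19.8). Of 12 dendritic and Langerhans cell genes 5 were higher. Ccr7, which guides dendritic cells to lymph nodes, read 1.47, 1.48 and 2.06 against 0.483, 0.526 and 0.449, and Cd207 (langerin) 10.6, 10.7 and 10.2 against 7, 6.97 and 6.15. The chemokine Ccl22, made by such cells, read 10.6, 7.87 and 10.1 against 2.1, 3.33 and 2.18 (1.73 ± 0.16, limma adjusted p = 0.00045), and its partner Ccl17 was higher by 1.11 ± 0.33. These were 2 of 15 type 2 cytokine genes called, a share near the 13.4% of all genes. Of 20 MHC genes 7 were higher, with H2-DMb2 at 1.01 ± 0.15 and the class II transactivator Ciita at 0.66 ± 0.15. Alox15, a lipoxygenase of macrophages and epithelia, read 1.98, 1.92 and 2.17 against 0.0614, 0.162 and 0.277. Of 7 neutrophil genes 4 were higher, and S100a9 ranged from 14.3 to 109 in labelled knockout libraries. With the omission of labelled knockout replicate 2 no neutrophil gene was called, and without wild type replicate 1 or 2, 1 and 2 were. Without wild type replicate 3 there were 8 macrophage calls, and without wild type replicate 1 there were 2. Without labelled knockout replicate 1 there were 2 macrophage, 2 dendritic and 2 MHC calls, and without replicate 2 there were 2, 1 and 1. With the omission of labelled knockout replicate 3 there were 2 dendritic calls, without wild type replicate 1, 3, and without wild type replicate 2, 3 dendritic and 3 MHC calls.

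Mast cell genes did not move as 1 group. Of 13 measured, 2 were lower and 1 higher (median -0.02). Fcer1a, the alpha chain of the IgE receptor that mast cells share with basophils, read 0.513, 1.42 and 0.914 in labelled knockout and 3.57, 4.67 and 3.62 in wild type skin (-1.66 ± 0.24, limma adjusted p = 0.0024). Tpsab1, a tryptase, was lower (0.538, 0.551 and 0.59 against 0.744, 2.25 and 1.25). The serotonin transporter Slc6a4 was higher (7.45, 8.41 and 7.58 against 4.21, 5.19 and 5.62). Cpa3, the abundant granule protease carboxypeptidase A3, was at 58.4, 64.2 and 59 against 41.9, 60.2 and 57.9, with overlapping groups. The summed level of the 17 listed genes was 333 to 342 in labelled knockout and 259 to 373 in wild type skin. Tpsab1 lost its call without labelled knockout replicate 1, 2 or 3 or wild type replicate 2 or 3, when 1 gene, Fcer1a, stayed lower.

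Fat genes were lower in labelled knockout skin. Of 22 white adipocyte genes 14 were lower and none higher (median -0.71). Lep, the fat hormone leptin, read 8.83, 7.41 and 7.12 in labelled knockout and 25.2, 41.6 and 30 in wild type skin, a 4.14-fold ratio (-1.96 ± 0.23, limma adjusted p = 0.00092). Car3, a carbonic anhydrase abundant in fat and muscle, read 234, 225 and 249 against 471, 763 and 606. The lipid droplet genes Plin1, Plin4 and Cidec had log2 fold changes of -0.99, -0.99 and -1.02. Adipoq (adiponectin) was lower as well (-0.94 ± 0.22). Cfd (adipsin; -0.26 ± 0.4), Dgat2 (0.4 ± 0.19) and Cebpa (0.16 ± 0.11) were not called. Of 17 fatty acid oxidation genes 8 were lower (median -0.34; 3 without labelled knockout replicate 1 or 2 and 5 without wild type replicate 2). The summed adipocyte level was 1370 to 1500 in labelled knockout and 1720 to 2870 in wild type skin, without overlap. Without wild type replicate 2, or labelled knockout replicate 1, 2 or 3, the lower genes numbered 7, 8, 7 and 9.

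Muscle genes were lower in labelled knockout skin in part. Of 15 genes common to all fibres 6 were lower and none higher (median -0.67; 3 without any 1 labelled knockout library). Of 11 genes of the slow, oxidative fibre 9 were lower and none higher (median -1.45). Tnnc1, slow troponin C, was the lowest of all genes by the naming rule, at 3.49, 3.52 and 5.1 in labelled knockout and 15.7, 25.8 and 22.8 in wild type skin (-2.26 ± 0.24, limma adjusted p = 0.00074). The slow myosin light chain Myl2 read 5.9, 4.27 and 4.71 against 14.1, 22.8 and 19.4, and its partner Myl3 3.25, 3 and 3.1 against 11.4, 14.8 and 13. The heavy chain Myh7 and slow troponin I (Tnni1) were lower by -1.66 ± 0.22 and -1.65 ± 0.2. Myh3, the embryonic myosin heavy chain, read 8.25, 6.91 and 8.76 against 28.7, 30.9 and 22.3. Of 12 fast fibre genes 1, Myh2, was lower (-1.36 ± 0.36). The fast genes Myh4 (212, 140 and 182 against 175, 173 and 354) and Pvalb (272, 199 and 308 against 259, 209 and 472) overlapped between the groups. The summed slow level was 168 to 194 in labelled knockout and 298 to 392 in wild type skin, and the summed fast level 1580 to 2110 and 2110 to 4130. The difference between the slow and the fast lists was not tested. The lower slow genes numbered 6 to 11 over the 20 alternatives, and the call of Myh2 was lost without labelled knockout replicate 2 or 3 or wild type replicate 2 or 3.

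Transcripts of the mitochondrial genome were lower in labelled knockout skin. Of 15 measured 11 were lower and none higher (median -1.01), and 45.2% of the 31 tested genes of chromosome MT were lower against 5.35% of all. The subunit mt-Nd2 of complex I read 1710, 1540 and 1380 in labelled knockout and 3790, 4460 and 3100 in wild type skin (-1.28 ± 0.18, limma adjusted p = 0.0021), and mt-Co1 of complex IV 6490, 6320 and 6360 against 12100, 14000 and 9630. Mitochondrial genes took 2.45% to 2.64% of the reads in labelled knockout and 4.17% to 6.28% in wild type libraries. Nuclear genes of the respiratory chain had a smaller median, a difference that was not tested: 8 of 40 were lower (median -0.29; 2 without labelled knockout replicate 1 or 2), with Ndufv2 at 44.7, 43.2 and 43.7 against 58.2, 59.3 and 63.1. None of 52 cytosolic ribosomal protein genes was called (limma; median -0.02; 4 at an unadjusted p below 0.05 and 1 by limma-voom on recovered reads), and without wild type replicate 3, 7 were higher and 1 lower. The slow muscle and fat sums given above were also lower in labelled knockout skin. Within wild type, replicates 1, 2 and 3 had slow muscle sums of 298, 335 and 392 and fat sums of 1720, 2520 and 2870. Their fast muscle sums were 2320, 2110 and 4130 and their mitochondrial sums 39500, 45300 and 31900. Whether these sums vary together was not tested. Nuclear copies of mitochondrial genes can take mitochondrial reads, so single values are uncertain. Without labelled knockout replicate 2 or wild type replicate 2 the lower genes numbered 6 and 7. With every gene above 0 FPKM in any untreated library included, 2 were lower at the same median of -1.01, and mt-Nd2 was not called.

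Vessel, nerve and pigment cells gave smaller sets. The pericyte genes Rgs5 (38.9, 38.7 and 46.8 in labelled knockout against 78.1, 86.8 and 62.8) and Mcam (-0.77 ± 0.13) were lower, as 2 of 12 pericyte and smooth muscle genes. Of 20 endothelial genes 4 were higher, including the adhesion molecules Icam1 (0.7 ± 0.15) and Vcam1 (0.9 ± 0.25), and Emcn was lower. Without wild type replicate 3, 7 were higher, and without any other library 0 to 2. Of 18 Schwann cell and myelin genes 4 were lower, S100b (89, 91.4 and 109 against 192, 145 and 203), Mbp, Cdh19 and Scn7a. S100b is also made by fat cells. With the omission of labelled knockout replicate 1 or 2, 1 of these was lower. Of 11 pigment genes 3 were higher, with Tyrp1 at 8.41, 6.04 and 7.69 against 2.63, 3.68 and 2.83. Among 24 Wnt ligands and antagonists 7 were higher (2, 3 and 4 without labelled knockout replicate 1, 2 or 3). The keratinocyte ligand Wnt3 read 4.28, 5.83 and 4.97 against 2.45, 2.26 and 1.78. The mechanosensitive channel Piezo1 read 11.1, 10.4 and 10.4 against 6.38, 6.84 and 6.55 (0.65 ± 0.1, limma adjusted p = 0.003). It was 1 of 3 called among 21 calcium handling genes, a share near the 13.4% of all genes called. All 3 were higher, against 8.09% of all genes. Without labelled knockout replicate 1, 1 was higher, and without wild type replicate 3, 6 were.

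Genes around Trpv3 were looked at because a targeted allele can bring linked sequence with it. Within 1 Mb of Trpv3, 23 other genes were tested, of which 2 were higher and 2 lower, 8.7% each. Xaf1, an interferon-inducible gene 954 kb below Trpv3, read 5.48, 5.57 and 4.81 in labelled knockout and 1.54, 1.8 and 1.66 in wild type skin (1.42 ± 0.29, limma adjusted p = 0.012). Spns2, a transporter of sphingosine phosphate, was higher too (0.84 ± 0.13). Shpk, 43 kb below, and Aspa, 5 kb above, were lower (-0.5 ± 0.14 and -0.73 ± 0.19). Within 10 Mb, 9.27% of 302 genes were higher and 5.3% lower, near the 8.09% and 5.35% of all genes. Of 13862 protein-coding genes 9.03% were higher and 5.61% lower, and of 369 long intergenic RNAs 3.79% and 5.69%. Higher genes had a median length of 3916 bases, lower genes 3440 and all genes 3690, and median levels of 7.14, 8.92 and 5.1 FPKM.

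The same genotype comparison in MC903-treated skin shares no library with the untreated one, so the values can be set side by side. There 27.2% of the 16214 genes were higher and 26.3% lower in skin labelled knockout. Of the 1312 genes higher in untreated skin, 39.7% were higher and 30.8% lower after MC903. Of the 868 lower ones, 29.1% were lower and 21.5% higher. The matrix lists had the same sign in both: collagens had a median of 1.15 untreated and 1.21 after MC903, with 22 of 28 higher there. Tnc was higher in both (1.61 and 1.81). The epidermal lists had opposite signs: terminal differentiation had a median of 1.26 untreated and -1.05 after MC903, with 0 higher and 16 of 24 lower there, and the suprabasal list 0.73 and -0.88. Asprv1 was at 1.71 untreated and -1.51 after MC903 (limma adjusted p = 0.00012). Col7a1, unlike the other collagens named above as higher, was at 1.17 and -1.7. The adipocyte median was -0.71 and -0.12, and the slow fibre median -1.45 and -0.57, while the fast fibre median was -0.4 untreated and -1.87 after MC903. The mitochondrially encoded median was -1.01 and 0.22. These differences between list medians were not tested.

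**Figure D4:**
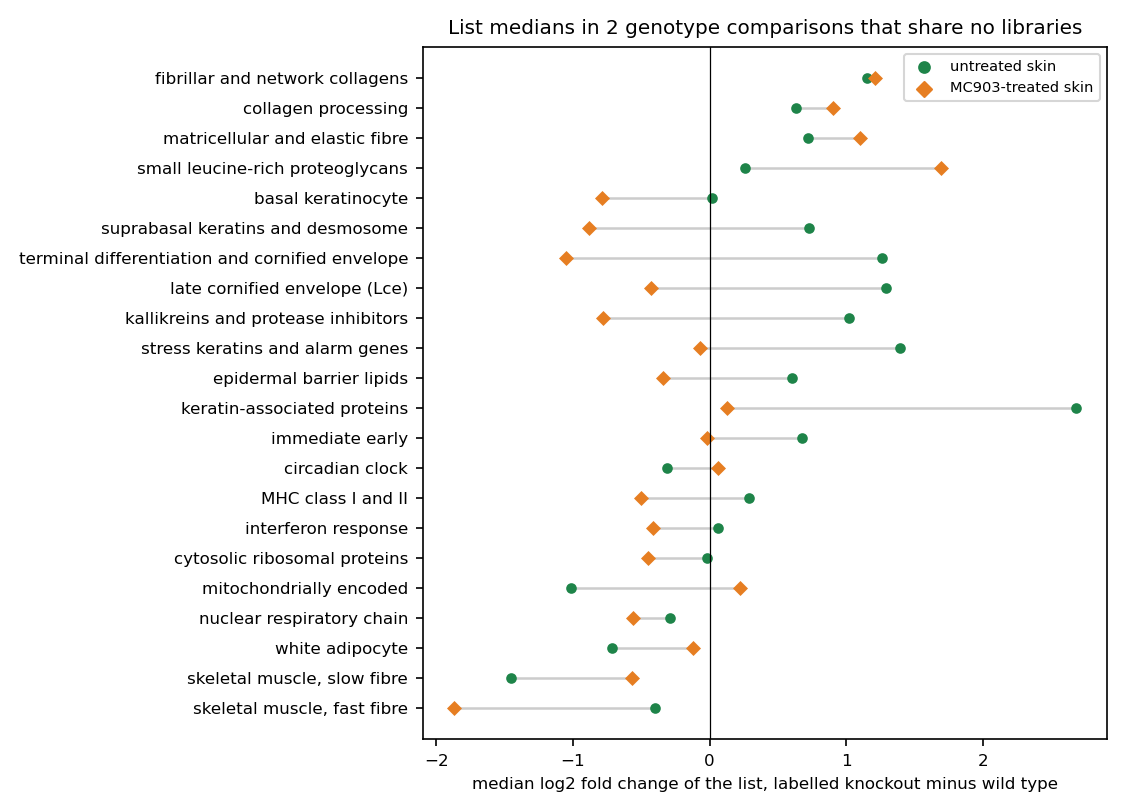
Median log2 fold change (labelled knockout minus wild type) of 22 gene lists in untreated skin (green circles) and in MC903-treated skin (orange diamonds), each from 3 against 3 libraries. Collagen medians lie at 1.15 and 1.21, terminal differentiation at 1.26 and -1.05, and mitochondrially encoded genes at -1.01 and 0.22.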

How the data were processed

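RNA of whole skin was sequenced from poly-A libraries. Per the submitters' processing notes, reads were counted with featureCounts on mm10, while the aligner is not given in the sources used here. FPKM values as deposited by the authors came out as whole reads in 100% of values (within 0.01), scaled by factors that followed size factors of the libraries. FPKM was taken as log2(FPKM + 0.5) and fitted with limma 3.58.1 (R 4.3.3; trended moderation, Benjamini-Hochberg adjustment over all 16214 genes) on the 12 untreated and MC903 skin libraries, with 8 residual degrees of freedom and a threshold of 0.05. The method was tested on simulated data in which every gene and library had the same spread. That simulation cannot show how the fit behaves with libraries as unequal as these. The labels do not say that replicate numbers pair the samples, and the numbers were not used as a block in the main fit. Named genes were the 5 study genes, the 10 highest and 10 lowest called genes without overlap, and up to 5 members per list by adjusted p; Ivl, Fa2h and the 4 genes near Trpv3, and list members beyond these, were named after their values were seen. The members and lists were chosen with earlier results of these data known. Counting error and family copies limit single values: without strand, antisense and overlapping genes cannot be told apart. Promoters came from RefSeq (GRCm38.p6).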

Additional observations from a re-analysis of the deposited data

Results flagged for a closer look

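For 18 of the 25 genes tested for it, the genotype difference in MC903 skin was not that in untreated skin, by limma's test of the difference itself (adjusted over all genes; 3 libraries in each of 4 groups). Of the 5 study genes 3 were among them, and Il33 (limma adjusted p of the difference = 0.46) and Tslp (0.79) were not. The share of all genes that pass this test is not given here, so 18 of 25 has no background beside it. After MC903, 27.2% of all genes were higher and 26.3% lower in skin labelled knockout, against 8.09% and 5.35% untreated. The count of 18 therefore cannot set these genes apart from the rest. Trpv3 was at 0.61 (log2, labelled knockout minus wild type) untreated and -1.45 after MC903, a difference of -2.06 (limma adjusted p = 0.00059). F2rl1 was at 0.39 and -1.02, a difference of -1.41, and Il1rl1 at 0.03 and 1.26, a difference of 1.23.

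Envelope and hair genes that were higher in untreated labelled knockout skin had smaller or negative differences after MC903. Stfa3 went from 3.44 to -0.94 (difference -4.38, limma adjusted p = 3e-05) and Sprr2d from 3.33 to -0.69 (-4.02). For Krtap6-3, Krtap4-2, Krtap6-2 and the lipoxygenase Alox8 the differences were -3.47, -3.22, -2.59 and -2.79. After MC903, Krtap6-3 averaged 0.0346 FPKM in labelled knockout and 0.0764 in wild type skin, and Krtap4-2 averaged 0.791 and 0.735. At levels this near the 0.5 added before the log, the difference mostly restates the untreated value. Krtap6-2 (7.86 and 4.87) and Alox8 (18.6 and 12.4) were above such levels.

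For the flagged genes that were lower untreated, the difference (MC903 value minus untreated value) was positive. Lep, which encodes leptin, went from -1.96 to 0.89 (difference 2.85, limma adjusted p = 0.00012), and Fcer1a, of the IgE receptor, from -1.66 to 1.13 (2.79). The muscle genes Tnnc1, Myl3, Myl2, Myh3, Myh7 and Tnni1 had differences of 1.49, 1.96, 1.63, 2.32, 1.81 and 1.04. After MC903, Tnnc1 (-0.77) and Tnni1 (-0.62) were still lower in labelled knockout skin and Myh3 (0.62) was higher. Myl2 (-0.17), Myl3 (0.06) and Myh7 (0.14) were not called there. Fam240b, at -0.26 after MC903, had a difference of 1.26. These genes were picked for large untreated values, apart from the study's own genes, so a smaller value in the other skin is partly built into the choice.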

How the results depend on the processing

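Each result was recomputed under 20 alternatives. Against 1312 genes higher and 868 lower, library weights gave 3746 and 3158, the untreated libraries alone 567 and 342, and size factors of the untreated libraries 536 and 343. Leaving out 1 library gave 521 (labelled knockout replicate 2) to 2178 (wild type replicate 3) higher and 284 to 1496 lower, and 298 to 512 genes at 2-fold or more against 448. With the replicate number as a block (replicate block) 1406 were higher and 832 lower, 1203 and 739 of them shared with those reported. Correlations of same-numbered libraries, as deviations from their group means, were -0.0117, 0.0769 and 0.161. Those of the other pairs ran from -0.136 to 0.0849. So few libraries neither show nor exclude a pairing by number. Of 138 named genes with a call, 84 kept it in every alternative, 54 lost it in at least 1 and 0 changed sign. Named genes that lost the call without 1 library were, beside those given in the report, Prr9, Krtap4-1, Krtap4-2, Krtap4-6, Adam17, Erbb2, Hbegf, Adipoq, Plin1, Arntl, Npas2, Nr1d1, Nr1d2, Per3, Fos, Jun, Fosl1, mt-Co1, Pdgfra, Podn, Postn, Skil, Tgfb1, Aspa, Shpk, Ccl17, Cd207, Ciita, Mrc1, Slc6a4, S100a9, Vcam1, Icam1, Emcn, Mbp, Cdh19, Scn7a, Cryab, Krt39, Krt84, Padi1 and Padi3. Uncalled genes that changed sign were Il1rl1 (-0.01 scaled by total reads; -0.11 to 0.23 with 1 library left out), Tslp (-0.09 with library weights; -0.06 to 0.3), Cfd (0.58 with library weights; -0.75 to 0.28), Trpv4 (-0.12 with library weights; -0.15 to 0.2), Myh4 (-0.51 to 0.01) and Pvalb (-0.45 to 0.13). The cause was not tested. Depth limits genes near 0.5 FPKM, and 3 libraries a group limit every call.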
